A study of Mus musculus with 12 samples.

Results

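BMP, Nodal and activin signals restrain themselves through inhibitors that their own target genes encode. Of the 9 genes described here, 5 encode such inhibitors: the inhibitory Smads (Smad6, Smad7), a decoy receptor (Bambi) and the secreted Nodal antagonists (Lefty1, Lefty2). The other 4 (Id1, Id2, Id3, Id4) encode Id proteins, which bind other transcription factors. Every probe set that the array annotation gives to 1 of these symbols was taken, which found 14 of the 37600 probe sets tested, for all 9 genes, of the 16509 named by a single-symbol probe set. Id2 and Id4 had 3 probe sets each, Smad7 had 2 and the other 6 genes had 1 each. No probe set carried a member symbol among several symbols.

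The cells were F9, a mouse teratocarcinoma line that resembles early embryonic cells and differentiates when given retinoic acid. The 4 groups, of 3 arrays each, were cells labelled RARaKO given all-trans retinoic acid (atRA), cells labelled RARaKO given the ethanol vehicle (EtOH), WT cells given atRA and WT cells given EtOH, where the label RARaKO names a knockout of Rara, the gene of 1 of the nuclear receptors for retinoic acid. All 4 groups also received cycloheximide, an inhibitor of protein synthesis, at 1 µg/ml, beginning 30 min before atRA at 1 µM or EtOH at 0.1% was added for 7.5 h. The arrays of a group are numbered by set (2, 3 and 4). The labels do not say how the receptor gene was disrupted, whether the cells labelled RARaKO are a single clone, or whether sets are separate cultures, so the p-values reflect array-to-array spread, which may be technical.

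Ligands of the BMP family lead to phosphorylation of Smad1, Smad5 and Smad9, while Nodal and activin act through Smad2 and Smad3, and both kinds of Smad enter the nucleus with Smad4. Smad6 and Smad7 block this at the receptor, Bambi encodes a receptor-like protein without kinase activity, and Lefty proteins hold Nodal and its co-receptor away from the receptor. Id proteins are helix-loop-helix proteins without a DNA-binding region. They pair with E proteins such as those encoded by Tcf3, Tcf4 and Tcf12 and keep them from DNA, and Id1, Id2 and Id3 are standard targets of BMP signalling in embryonic stem cells.

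Values are on a scale taken as log2 and are relative to the median of each probe set over the 12 arrays. Differences between groups can therefore be read, and levels cannot. The number spacing of the values still gave a coarse level: 8 of the 14 probe sets, from 6 genes (Smad7, Id1, Id2, Id3, Id4 and Lefty1), lay at 8 or above on every array, against 31.3% of all probe sets. All 14 lay at 4 or above on every array. The treatment was seen in Cyp26a1, which encodes the enzyme that degrades retinoic acid: it rose with atRA by 1.38 ± 0.08 in the arrays labelled RARaKO and by 1.35 ± 0.08 in WT cells. Rarb, also chosen as a check, rose by 0.95 ± 0.09 in the arrays labelled RARaKO and by 1.35 ± 0.09 in WT cells. The difference between its responses, -0.40 ± 0.12, did not pass the test. With EtOH, Rarb was higher by 0.54 ± 0.09 in the arrays labelled RARaKO (limma, adjusted p = 0.00394). The single probe set of Rara went against the genotype label, with 0.29, 0.32 and 0.30 in RARaKO EtOH arrays against -0.55, -0.50 and -0.76 in WT EtOH arrays (limma, adjusted p = 1.50e-04). Which part of the gene it reads relative to the disruption is not given, so all genotype comparisons rest on the label, and the arrays are called arrays labelled RARaKO. Of 8 markers of pluripotent cells, 6 lay at 8 or above on every array, as did 7 of 10 markers of extraembryonic endoderm, 2 of 5 neural, 1 of 5 fibroblast and 0 of 5 trophoblast markers. The pluripotency markers Sox2 and Zfp42 were classed as under 4 on at least 1 array, as were Col4a2 (endoderm) and Tubb3 (neural). Each marker was read at its probe set of the highest class, which can raise these counts. The 31.3% above is over probe sets, and a share over genes chosen in this way is not given. The class was tested on simulated data alone. In the responses to atRA the sole marker called was Pdgfrb, a fibroblast marker, which was higher. The mean of the 5 fibroblast markers lay between -0.01 and 0.12 with atRA and between -0.12 and -0.04 with EtOH in the arrays labelled RARaKO, and between -0.05 and 0.09 against -0.10 to 0.00 in WT cells. The mean of the 5 trophoblast markers lay between 0.02 and 0.07 with atRA and between -0.03 and -0.02 with EtOH in WT cells, which do not overlap, and between -0.16 and 0.12 against -0.06 to -0.03 in the arrays labelled RARaKO, which do. The part of either list in the atRA results was not tested.

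Id4 fell with atRA in both genotypes, and its 3 probe sets gave like values. At probe set 1423259_at Id4 stood at -0.26, -0.33 and -0.29 in atRA arrays labelled RARaKO (sets 2, 3 and 4), against 0.13, 0.23 and 0.12 in EtOH arrays labelled RARaKO. In WT cells it stood at -0.12, -0.33 and -0.26 with atRA, against 0.56, 0.35 and 0.27 with EtOH. Every atRA array thus lay below every EtOH array, and the highest values were those of WT cells in EtOH. The log2 difference was -0.45 ± 0.08 in the arrays labelled RARaKO (limma, adjusted p = 0.0444) and -0.63 ± 0.08 in WT cells (adjusted p = 0.00276), where ± is the standard error of the fit. In WT cells that is a level 1.55-fold lower with atRA. Whether fewer cells carried the transcript or each cell carried less cannot be told apart in bulk RNA.

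At the other 2 Id4 probe sets the atRA arrays also lay below the EtOH arrays in each genotype. At 1450928_at the values with atRA were -0.53, -0.35 and -0.37 in arrays labelled RARaKO, against 0.07, 0.26 and 0.13 with EtOH, and in WT cells they were -0.07, -0.27 and -0.13 with atRA against 0.40, 0.31 and 0.29 with EtOH. That is a difference of -0.57 ± 0.08 in the arrays labelled RARaKO (limma, adjusted p = 0.00858) and of -0.49 ± 0.08 in WT cells (adjusted p = 0.0119). The third, 1423260_at, did not pass the test in either genotype alone, with -0.47 ± 0.10 (adjusted p = 0.108) and -0.39 ± 0.10 (adjusted p = 0.158). All 3 probe sets were designed on 1 transcript sequence by the annotation's accession, so they are repeat readings of a transcript and not independent genes. Averaged over the genotypes, which uses all 12 arrays, they fell by 0.54 ± 0.06, 0.53 ± 0.06 and 0.43 ± 0.07 (limma, adjusted p = 3.10e-04, 2.62e-04 and 0.00713), and in each case the 6 atRA arrays lay below the 6 EtOH arrays. Within each set the difference was negative in both genotypes at all 3 probe sets, and at 1423259_at it was -0.39, -0.56 and -0.41 in the arrays labelled RARaKO and -0.68, -0.68 and -0.53 in WT cells.

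Smad6, which encodes the inhibitory Smad that acts chiefly on BMP receptors, moved the other way. It stood at 0.18, 0.03 and 0.22 in atRA arrays labelled RARaKO, against -0.19, -0.20 and -0.03 with EtOH. In WT cells it stood at 0.15, 0.20 and 0.33 with atRA, against -0.34, -0.35 and -0.28 with EtOH. All 6 atRA arrays lay above all 6 EtOH arrays, and the lowest values were the 3 WT EtOH arrays. In WT cells Smad6 rose by 0.55 ± 0.08 (limma, adjusted p = 0.00425), a 1.47-fold higher level. In the arrays labelled RARaKO the difference was 0.28 ± 0.08 and did not pass the test (adjusted p = 0.242), while the mean over both genotypes was 0.42 ± 0.05 (adjusted p = 0.00129).

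**Figure D1:**
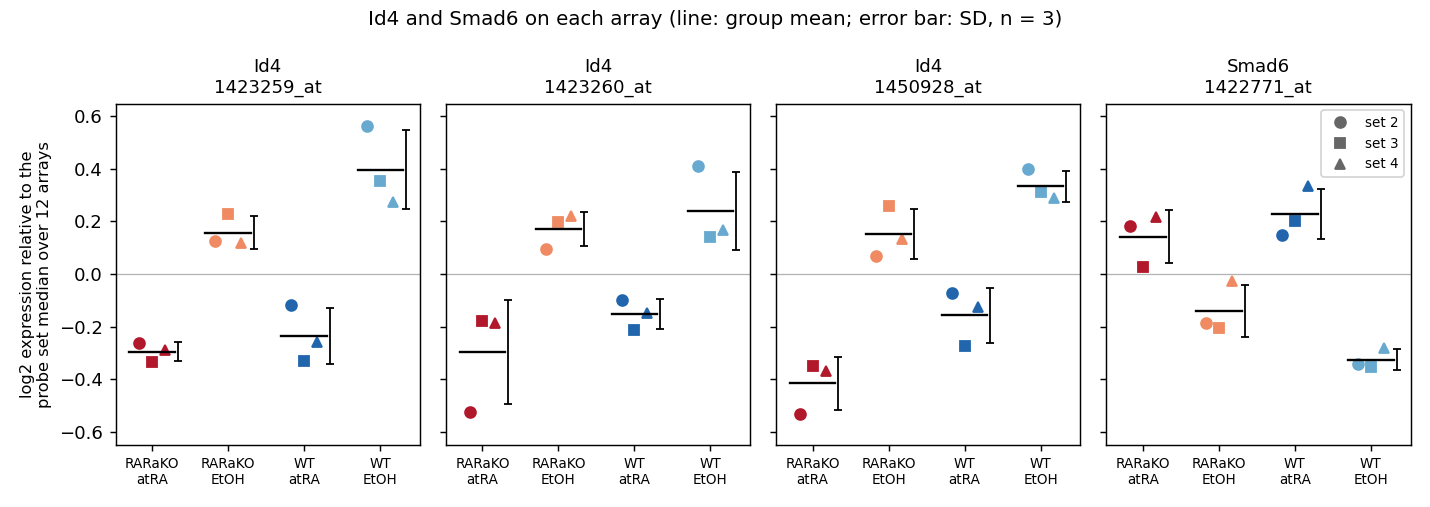
Expression of Id4 (3 probe sets) and Smad6 on each array, in log2 units relative to the probe set's median over 12 arrays. Points are arrays, with the marker shape giving the set, short lines are group means and error bars are SD (n = 3). In every panel the atRA and EtOH arrays of a genotype do not overlap: Id4 is below its EtOH arrays with atRA (-0.63 ± 0.08 in WT cells at 1423259_at) and Smad6 is above them (0.55 ± 0.08 in WT cells).

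Since protein synthesis was inhibited, the sequence just before the start of these 2 responding genes is shown, as given in the RefSeq promoter table (GRCm38.p6), 5′ to 3′ on the gene's own strand. Promoters of 4 of the 9 genes (Smad6, Id2, Id3 and Id4) were read from that table. The Id4 stretch lies at chr13:48260866-48261115 on the plus strand, and the Smad6 stretch at chr9:64022086-64022309 on the minus strand, where bases inside its longest transcript were left out. Capitals mark GC boxes, CCGCCC on either strand.
Id4: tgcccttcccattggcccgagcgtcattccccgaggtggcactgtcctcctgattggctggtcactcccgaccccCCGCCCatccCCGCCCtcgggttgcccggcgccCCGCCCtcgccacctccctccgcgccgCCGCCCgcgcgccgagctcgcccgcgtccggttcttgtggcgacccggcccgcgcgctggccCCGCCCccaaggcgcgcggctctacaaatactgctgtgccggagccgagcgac
Smad6: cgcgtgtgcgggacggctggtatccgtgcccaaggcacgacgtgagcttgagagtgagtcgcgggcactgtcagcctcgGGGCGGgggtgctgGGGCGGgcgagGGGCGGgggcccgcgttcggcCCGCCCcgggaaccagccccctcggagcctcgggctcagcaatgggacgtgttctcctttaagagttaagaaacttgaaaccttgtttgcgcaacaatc

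Id4 held 5 GC boxes and Smad6 held 4, in stretches of 75.6% and 66.5% G and C, and 32.7% of the 32851 promoters in the table held at least 1 in the 250 bases before the start. Id2 held 1 and Id3 held 2. The retinoid receptor half-sites AGGTCA and GGTTCA, searched on both strands, were in none of the 4 windows, where 14% and 8.85% of all promoters held them. The GC-rich Smad element GGCGCC was found once in Id4 and once in Id2, against 9.59% of all promoters, and overlapped no marked GC box. The E-box CANNTG, the kind of site that E proteins bind, was found once in Id2 and in none of the other 3, against 66.2% of all promoters. These are matches of letters in a short window and show no binding.

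Over all members, 2 of 14 probe sets were called lower and 0 higher in the arrays labelled RARaKO, where 0.0479% of all probe sets were called lower and 0.263% in either direction. Both were Id4 probe sets, repeat readings of 1 gene. In WT cells 2 were called lower, both of Id4, and 1 higher, of Smad6. There 0.0851% of all were called lower, 0.484% higher and 0.569% in either direction. Averaged over the genotypes 3 were lower and 1 higher, where 0.543% of all were called lower, 1.06% higher and 1.60% in either direction, and all 4 came from Id4 and Smad6. The atRA and EtOH arrays did not overlap for 4 of 14 probe sets in the arrays labelled RARaKO (12.7% of all) and for 5 of 14 in WT cells (13.6% of all), the fifth being Bambi. Over all 12 arrays they did not overlap for 4 of 14 (1.29% of all). The median difference of the 14 was -0.04 in the arrays labelled RARaKO and -0.03 in WT cells, against 0.00 and -0.01 over all probe sets.

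The other members did not pass the test in any response to atRA. Id1 and Id3, the Id genes most often used as readouts of BMP signalling, differed by -0.04 ± 0.08 and 0.02 ± 0.09 in the arrays labelled RARaKO and by -0.08 ± 0.08 and 0.02 ± 0.09 in WT cells. Averaged over the genotypes their 95% confidence intervals ran from -0.18 to 0.06 for Id1 and from -0.11 to 0.15 for Id3, which do not reach the fall of Id4. Id1 stood at -0.02, -0.13 and 0.12 with atRA against -0.06, 0.01 and 0.14 with EtOH in the arrays labelled RARaKO, and at -0.13, 0.02 and -0.04 against 0.08, -0.01 and 0.03 in WT cells. Its groups overlapped in every comparison, as did those of Id3. The 3 Id2 probe sets differed by between -0.05 and -0.04 in the arrays labelled RARaKO and by between -0.11 and 0.19 in WT cells.

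Smad7, which blocks both BMP and activin or Nodal receptors, did not follow Smad6. Its probe set 1423389_at stood at 0.14, 0.04 and -0.09 with atRA against 0.13, 0.03 and -0.01 with EtOH in the arrays labelled RARaKO, and at 0.07, -0.02 and -0.08 against 0.01, -0.02 and -0.15 in WT cells. The averaged difference was 0.01 ± 0.05 (95% confidence interval -0.10 to 0.13), below the interval of Smad6 (0.30 to 0.53), and the second probe set, of a type that can also read other transcripts, gave 0.02 ± 0.05. Bambi stood at -0.29, -0.21 and -0.11 with atRA against -0.16, 0.03 and 0.11 with EtOH in the arrays labelled RARaKO. In WT cells it stood at -0.03, 0.01 and -0.01 with atRA against 0.16, 0.14 and 0.06 with EtOH. Its averaged difference of -0.16 ± 0.05 had an unadjusted p of 0.0104 and did not pass after adjustment (limma, adjusted p = 0.231). A pseudogene of Bambi has a probe set of its own on the array, and whether either probe set reads the other transcript was not tested.

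Lefty1 has Stra3 among its synonyms in the RefSeq gene table, which is separate from the promoter table, a name given for its stimulation by retinoic acid in another embryonal carcinoma line. Here it stood at 0.01, 0.02 and 0.40 with atRA against 0.01, -0.06 and 0.46 with EtOH in the arrays labelled RARaKO, and at -0.14, 0.16 and -0.04 against -0.27, -0.01 and -0.24 in WT cells. Both arrays of set 4 labelled RARaKO stood far above the other 4 of that genotype. The difference was 0.01 ± 0.15 in the arrays labelled RARaKO (limma, adjusted p = 0.996) and 0.17 ± 0.15 in WT cells (adjusted p = 0.893), with a 95% confidence interval in WT cells of -0.15 to 0.48. Lefty2 differed by -0.21 ± 0.10 in the arrays labelled RARaKO and by -0.11 ± 0.10 in WT cells (adjusted p = 0.643 and 0.911).

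**Figure D2:**
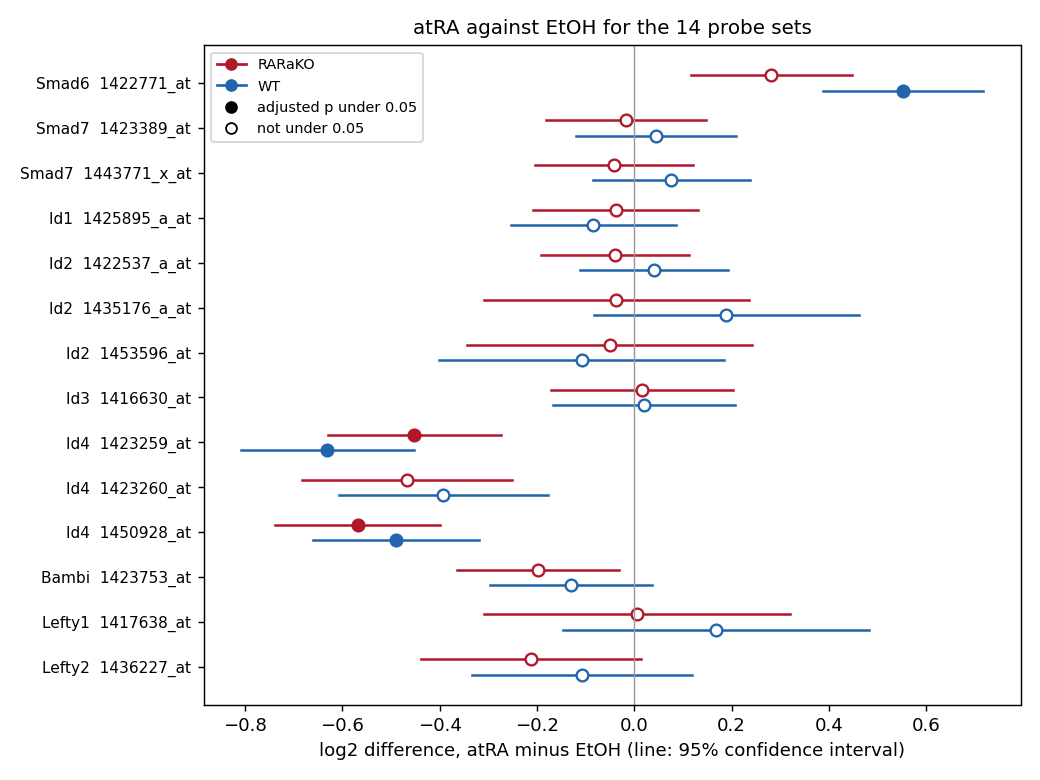
Log2 difference, atRA minus EtOH, for each of the 14 probe sets, with the arrays labelled RARaKO drawn above WT. Points are estimates of the fit, lines are 95% confidence intervals, and filled points had an adjusted p under 0.05. Smad6 lies to the right (0.55 ± 0.08 in WT cells), the 3 Id4 probe sets lie to the left, and the intervals of Smad7, Id1, Id2 and Id3 include 0 in both genotypes.

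Whether the response differed between the genotypes was tested directly, as the response in the arrays labelled RARaKO minus that in WT cells. No member passed, and no probe set of the 37600 did (limma, 0% called, with 1168 at an unadjusted p under 0.05). Smad6 had the largest difference among the members, -0.27 ± 0.11, with an unadjusted p of 0.0261 and an adjusted p of 1.00. Its 95% confidence interval, -0.50 to -0.04, lies below 0 before adjustment. For Id4 the 3 probe sets gave 0.18 ± 0.12, -0.08 ± 0.11 and -0.07 ± 0.14, in the order in which they were described, and so had no common sign. Of the 14 differences 11 were negative, with a median of -0.08 against 0.01 over all probe sets.

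The genotypes differed most in Lefty2, a secreted antagonist of Nodal. It stood at -0.45, -0.39 and -0.43 in atRA arrays labelled RARaKO, against 0.12, -0.05 and 0.06 in WT atRA arrays. In EtOH it stood at -0.41, 0.05 and -0.27 in arrays labelled RARaKO, against 0.28, 0.06 and 0.11 in WT arrays. With atRA the groups lay far apart, while in EtOH set 3 of the arrays labelled RARaKO reached within 0.01 of the WT array of its own set. In atRA Lefty2 was lower by -0.47 ± 0.10 (limma, adjusted p = 0.0314), in EtOH the difference was -0.36 ± 0.10 and did not pass (adjusted p = 0.0942), and averaged over the treatments it was -0.41 ± 0.07 (adjusted p = 0.00354), a 1.33-fold lower level. Lefty1, its neighbour on chromosome 1 and close relative, did not pass in either treatment. Its difference was 0.15 ± 0.15 in atRA and 0.31 ± 0.15 in EtOH (adjusted p = 0.653 and 0.335), of the opposite sign, and within sets it ranged between -0.05 (set 3) and 0.71 (set 4) in EtOH.

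**Figure D3:**
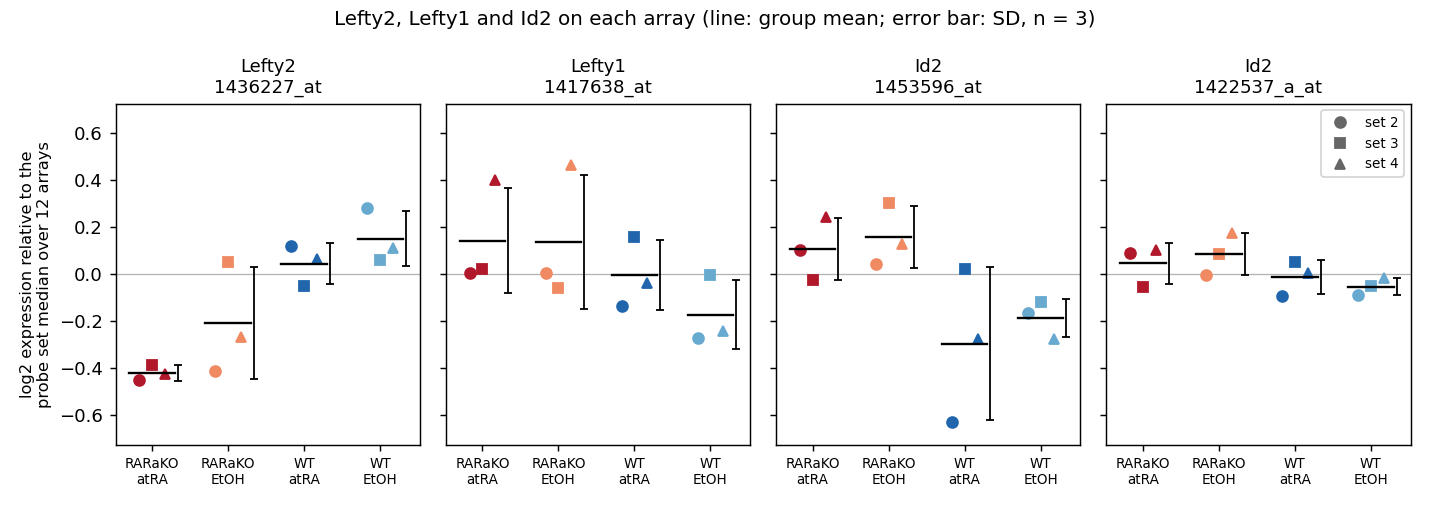
Expression of Lefty2, Lefty1 and 2 of the 3 Id2 probe sets on each array, in log2 units relative to the probe set's median over 12 arrays, with short lines for group means and SD error bars (n = 3). Lefty2 is lower in the arrays labelled RARaKO than in WT with atRA (-0.47 ± 0.10). Lefty1 shows no such order, and the Id2 probe sets differ between genotypes by unlike amounts.

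Id2 was read unevenly by its probe sets. At 1453596_at it stood at 0.10, -0.02 and 0.24 in atRA arrays labelled RARaKO against -0.63, 0.02 and -0.28 in WT atRA arrays, and in EtOH at 0.04, 0.30 and 0.13 against -0.17, -0.12 and -0.28. The 6 arrays labelled RARaKO were higher on average by 0.37 ± 0.10 (limma, adjusted p = 0.0253), though neither treatment passed alone (adjusted p = 0.134 in atRA and 0.231 in EtOH). The other 2 Id2 probe sets, which lay in the highest level class while this one did not, gave 0.10 ± 0.05 and 0.09 ± 0.09 (adjusted p = 0.252 and 0.591). In EtOH the arrays labelled RARaKO lay above the WT arrays at all 3 probe sets, as groups did not overlap for 22.4% of all. The differences were 0.34 ± 0.14 at 1453596_at, 0.14 ± 0.07 at 1422537_a_at and 0.20 ± 0.13 at 1435176_a_at, and none passed. In atRA the groups overlapped at all 3. Whether the 3 read the same transcript is not given, so the called genotype difference of Id2 as a gene rests on 1 of 3 probe sets.

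Id4 was lower in the arrays labelled RARaKO at 1 of its 3 probe sets, 1450928_at, by -0.22 ± 0.06 averaged over the treatments (limma, adjusted p = 0.0235). The others gave -0.15 ± 0.06 at 1423259_at and -0.11 ± 0.07 at 1423260_at (adjusted p = 0.126 and 0.397). In EtOH the 3 arrays labelled RARaKO lay above the 3 WT arrays for Smad6, with a difference of 0.18 ± 0.08, and in atRA the difference was -0.09 ± 0.08. Neither passed the test (adjusted p = 0.260 and 0.609). Bambi differed by -0.19 ± 0.08 in atRA and -0.13 ± 0.08 in EtOH, and averaged over the treatments by -0.16 ± 0.05 (adjusted p = 0.0812). Id1, Id3 and Smad7 differed by at most 0.12 in size in any of the 6 comparisons of groups, and the widest of their 95% confidence intervals reached a fold of 1.22.

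Between the genotypes in atRA 1 of 14 probe sets was called, lower in the arrays labelled RARaKO, where 1.51% of all were called lower, 1.61% higher and 3.12% in either direction. In EtOH 0 of 14 were called by limma, with 3.01% called over all probe sets (1.84% higher and 1.16% lower), and 5 of the 14 had an unadjusted p under 0.05, as did 15.3% of all. Averaged over the treatments 2 were lower and 1 higher, where 5.61% of all were called lower, 5.28% higher and 10.9% in either direction. These 3 of 14 were 1 probe set each of Lefty2, Id4 and Id2, and their number was not tested against that share. Groups did not overlap for 3 of 14 in atRA (20.4% of all) and 7 of 14 in EtOH (22.4% of all), and for 0 of 14 when all 12 arrays were split by genotype (6.19% of all). The 7 in EtOH were of Smad6, Lefty2, Id2 and Id4. They hold more than 1 probe set each of Id2 and Id4, as the 5 above do of Id4, so they are not independent. Of the marker lists, the neural marker Tubb3 was called higher in both treatments in arrays labelled RARaKO and the pluripotency gene Pou5f1 was lower on average. The mean of the 5 neural markers lay between -0.01 and 0.10 in atRA and between 0.07 and 0.14 in EtOH in the arrays labelled RARaKO, against -0.21 to -0.04 and -0.08 to -0.01 in WT cells, and their part in the results was not tested.

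**Figure D4:**
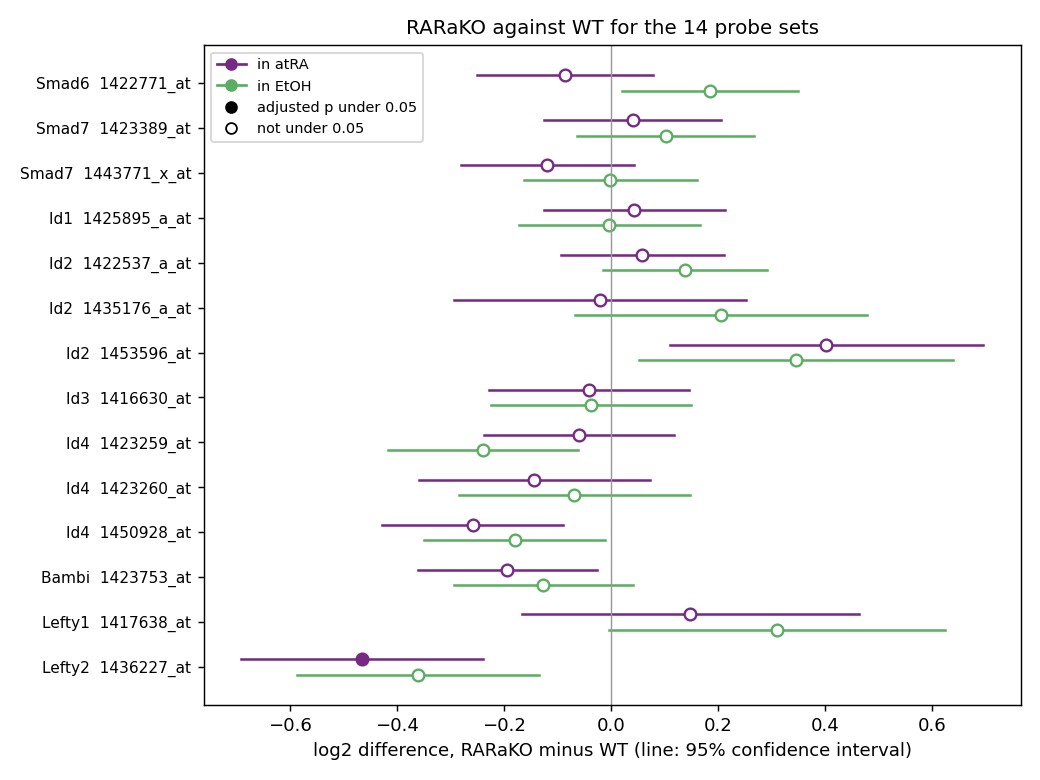
Log2 difference, arrays labelled RARaKO minus WT, for each of the 14 probe sets, in atRA (upper of each pair) and in EtOH. Lines are 95% confidence intervals and filled points had an adjusted p under 0.05. Lefty2 in atRA (-0.47 ± 0.10) is the single filled point.

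A measure of RNA integrity moved with some of these groups. The mean 5′ minus 3′ difference of 4 control transcripts lay between 0.00 and 0.09 in atRA and between -0.02 and 0.13 in EtOH in the arrays labelled RARaKO, and between -0.02 and 0.02 in atRA and between -0.12 and -0.08 in EtOH in WT cells. The WT groups did not overlap in it, and neither did the genotypes in EtOH, while the atRA and EtOH arrays labelled RARaKO did, as did the genotypes in atRA. Its part in the values of Smad6 and Id4 was not tested.

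Single arrays decided several calls. In WT cells Smad6 and Id4 at 1423259_at kept their calls without any 1 of the 12 arrays (adjusted p up to 0.0313 and 0.0218). Id4 at 1450928_at lost it without WT EtOH replicate 2 or 3 or WT atRA replicate 3 or 4 (adjusted p between 0.0502 and 0.0677). In the arrays labelled RARaKO, Id4 at 1450928_at lost its call without RARaKO EtOH replicate 3 (adjusted p = 0.0597), and at 1423259_at it kept its call only without WT EtOH replicate 2 or 4 and lost it without any of the other 10 arrays (adjusted p up to 0.255). The 4 calls averaged over the genotypes all held without any 1 array. Lefty2 lost its call in atRA without any of the 3 RARaKO atRA arrays or without WT atRA replicate 2 or 4 (adjusted p up to 0.111), and kept its averaged call without any 1 array. The averaged genotype call of Id2 at 1453596_at was lost without RARaKO EtOH replicate 3, RARaKO atRA replicate 4, WT EtOH replicate 4 or WT atRA replicate 4 (adjusted p up to 0.0678), and that of Id4 at 1450928_at without replicate 2 of RARaKO EtOH, WT EtOH or WT atRA or without WT atRA replicate 4 (adjusted p up to 0.0611).

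Other genes of the pathway were read from 6 lists, for 96 of whose 107 members a single-symbol probe set was on the array. The lists were chosen with earlier results of these data known, so their shares beside those of all genes are descriptions and test nothing. Averaged over the genotypes 5 rose with atRA and 2 fell, or 7.29%, where 2.02% of all genes were called. Pmepa1, which encodes a membrane protein that restrains Smad2 and Smad3, rose like Smad6. It stood at 0.34, 0.06 and 0.36 with atRA against -0.06, -0.15 and -0.07 with EtOH in the arrays labelled RARaKO, and at 0.28, 0.35 and 0.31 against -0.20, -0.24 and -0.27 in WT cells. Its difference was 0.35 ± 0.08 in the arrays labelled RARaKO (limma, adjusted p = 0.123), 0.55 ± 0.08 in WT cells (adjusted p = 0.00487) and 0.45 ± 0.05 on average (adjusted p = 7.85e-04). In WT cells and on average 2 of its 3 probe sets were called. Ski, a corepressor that binds Smads, rose by 0.31 ± 0.05 on average (adjusted p = 0.00525), and Zfp423, a zinc finger partner of BMP-activated Smads, rose by 0.26 ± 0.05 (adjusted p = 0.0293). These were the 3 of 17 Smads and nuclear partners that changed, and the call of Zfp423 held only without RARaKO EtOH replicate 4, RARaKO atRA replicate 3 or WT EtOH replicate 3 (adjusted p up to 0.0865 without any of the other 9).

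Inhbb, which encodes a subunit of activin B, was the sole ligand gene of 18 to change with atRA. It rose by 0.54 ± 0.10 on average (limma, adjusted p = 0.0175), at 1 of its 2 probe sets, with 0.48 ± 0.15 in the arrays labelled RARaKO and 0.61 ± 0.15 in WT cells. That call was lost without RARaKO EtOH replicate 3 (adjusted p = 0.0572) or WT EtOH replicate 3 (adjusted p = 0.0506). Of 14 secreted antagonists Fstl3, a follistatin-related protein that binds activin, rose by 0.34 ± 0.06 (adjusted p = 0.00925), and Fst, which encodes follistatin, fell by 0.36 ± 0.07 (adjusted p = 0.0199, both probe sets called). The call of Fst was lost without RARaKO atRA replicate 4, RARaKO EtOH replicate 3, WT atRA replicate 3 or 4 or WT EtOH replicate 2 or 4 (adjusted p up to 0.0599). None of the 17 receptors and co-receptors and none of the 14 further targets passed in a response to atRA.

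Among 16 basic helix-loop-helix genes, partners or antagonists of Id proteins, Neurog3 fell with atRA as Id4 did. Neurog3, a fate factor of pancreatic endocrine cells, stood at -0.25, -0.33 and -0.22 with atRA against 0.19, 0.38 and 0.25 with EtOH in the arrays labelled RARaKO. In WT cells it stood at -0.27, -0.41 and -0.12 with atRA against 0.51, 0.12 and 0.32 with EtOH. The averaged fall was 0.56 ± 0.07 (limma, adjusted p = 0.00110), called at both of its probe sets, and no array of atRA overlapped those of EtOH. The E protein genes Tcf3, Tcf4 and Tcf12 were not among the called genes of any comparison.

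**Figure D5:**
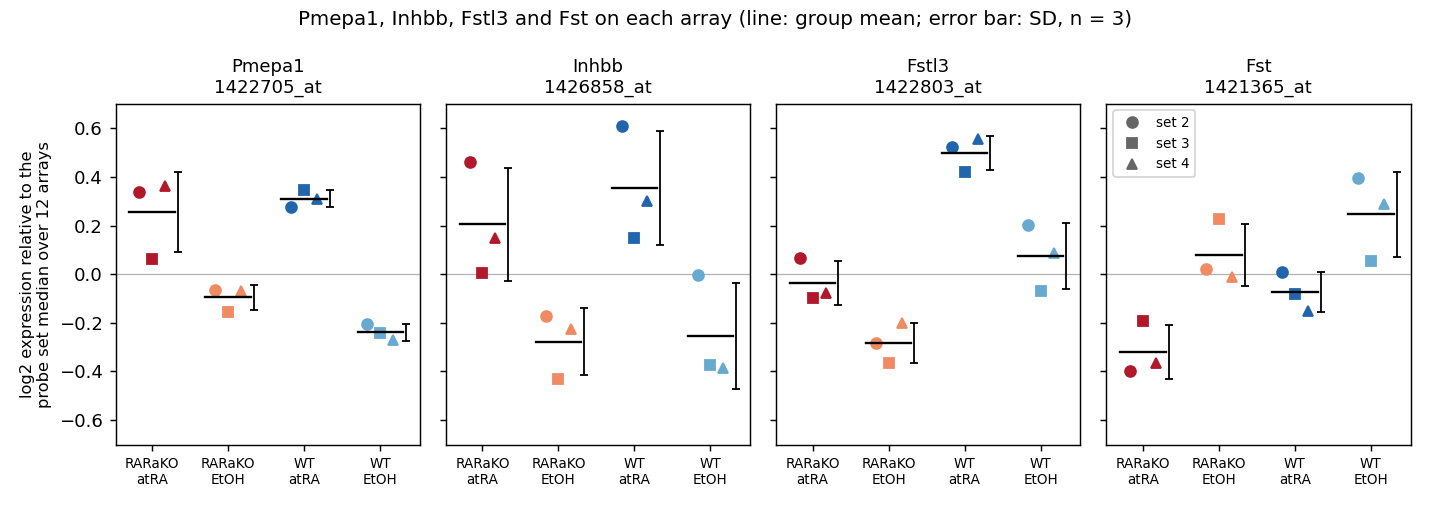
Expression of Pmepa1, Inhbb, Fstl3 and Fst on each array, in log2 units relative to the probe set's median over 12 arrays, with short lines for group means and SD error bars (n = 3). The atRA and EtOH arrays of a genotype do not overlap in any of the 4 panels. Of the probe sets drawn, Pmepa1 and Fstl3 passed the test within a genotype, in WT cells alone. The Fst probe set that is not drawn passed in both genotypes. Fstl3 is lower in the arrays labelled RARaKO than in WT in both treatments (-0.53 ± 0.08 in atRA and -0.36 ± 0.08 in EtOH).

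Between the genotypes, averaged over the treatments, the arrays labelled RARaKO had 7 of the 96 pathway genes higher and 8 lower, or 15.6%, where 12.3% of all genes were called. The ligand genes Bmp8b (0.47 ± 0.07), Bmp8a (0.47 ± 0.08) and Bmp4 (0.23 ± 0.05) were higher, as were the receptor genes Bmpr2 (0.33 ± 0.05, 1 of 3 probe sets called) and Acvr1b (0.21 ± 0.05, 1 of 2), which bind BMPs and activin or Nodal. Fstl3 (-0.45 ± 0.06) and Fstl1 (-0.42 ± 0.06), both of secreted follistatin-related proteins, were lower. The probe set that stood for Fst gave -0.21 ± 0.07 and did not pass (limma, adjusted p = 0.0779). Its other probe set was called between the genotypes on average and in each treatment, and is not in these counts. Of 14 further targets Msx2 and Klf10 were higher, while Gata3 (-0.49 ± 0.08), Tgfbi (-0.23 ± 0.06) and Ccn2 (-0.27 ± 0.07), the last named outside the rule for named genes, were lower. The other 3 that were lower were Neurod1 (-0.56 ± 0.09), Zfp423 (-0.18 ± 0.05) and Ppm1a (-0.15 ± 0.04). Only 1 probe set was called of 8 for Ppm1a, of 4 for Tgfbi and of 2 each for Neurod1 and Msx2. Ccn2 was not refitted under the alternatives. These calls at adjusted p under 0.05 came from limma, and some rested on single arrays. That of Klf10 was lost without RARaKO EtOH replicate 3 or WT EtOH replicate 4, that of Acvr1b without RARaKO atRA replicate 2, RARaKO EtOH replicate 2 or WT EtOH replicate 3 or 4, and that of Msx2 without RARaKO EtOH replicate 2 or 3, WT atRA replicate 4 or WT EtOH replicate 3 (adjusted p up to 0.0659). That of Tgfbi was lost without RARaKO EtOH replicate 2, WT atRA replicate 4 or WT EtOH replicate 2 or 4, that of Zfp423 without 9 of the 12 arrays and that of Ppm1a without any but RARaKO atRA replicate 2.

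The genes most like each called member over the 12 arrays were found by Pearson's correlation among all genes, which share arrays and groups, so r is a description. Smad6 was most like Radil (r = 0.97), Thrsp (r = 0.96) and Pmepa1 (r = 0.96). Id4 at 1423259_at was most like Hps3 (r = 0.96), Snx24 (r = 0.95) and Polr3g (r = 0.95), with smaller differences: in WT cells Hps3 gave -0.38 and Snx24 -0.18 with atRA. Lefty2 was most like Pank1 (r = 0.95), Hnrnpab (r = 0.94) and the imprinted gene Grb10 (r = 0.93). Between the genotypes in atRA these differed by unlike amounts, -0.327 for Pank1, -0.0379 for Hnrnpab and -0.513 for Grb10.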

How the data were processed

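Transcripts were measured with 12 Affymetrix mouse arrays hybridised with biotin-labelled cRNA, 3 per group. The deposited values are per probe set and taken as log2. They were processed with GCRMA per the submitters' processing notes, which give no version, and neither the log base nor the centring found in the values (each of the 37661 rows has a median of 0 over the 12 arrays) is stated in the sources used here. A coarse level class was read from the single-precision spacing of the values, tested on simulated data. The 61 control probe sets were left out and 37600 tested in 1 linear model with a mean per group (R 4.3.3; lmFit, then eBayes, of limma 3.58.1; residual df 8, prior df 4.60), two-sided, with Benjamini-Hochberg adjustment over all probe sets and a threshold of 0.05. In 7 comparisons each response, each genotype difference, their averages and the difference between responses were fitted, and the averages reuse the arrays of the single comparisons. With several probe sets, the highest level class, then the least ambiguous type, then the lowest number stood for a gene in lists and likeness. Up to 4 called members of a list were named, with the smallest p. Members, lists and rules were chosen with earlier results of these data known.

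Symbols came from the platform annotation: 30488 probe sets had 1 symbol, 784 several and 6328 none. Same-numbered arrays deviated together, with correlations between 0.10 and 0.50 within a genotype and between genotypes in EtOH. Between genotypes in atRA the correlation for set 4 was 0.04. The numbers were therefore taken to pair arrays except in that comparison and in those of all 4 groups. The main fit had no term for the set, so its standard errors and p-values do not use this pairing. Alternatives were the set as a block, each array or set left out, array weights, quantile normalization, a level of at least 8, robust eBayes and only the arrays compared. The number of arrays limits the precision.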

Additional observations from a re-analysis of the deposited data

How the results depend on the processing

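All 13 called member values kept their direction under every alternative run. With the set as a replicate block the numbers of member probe sets called were 3 (WT response), 2 (response of arrays labelled RARaKO), 0 (difference between responses), 0 and 1 (genotypes in EtOH and in atRA), 4 and 3 (averages), as without it, and no called member lost its call, nor did any of the 33 pathway calls refitted, which leave out Ccn2. All 12 arrays correlated best with their own set number. When only the arrays compared were fitted, 0 were called in the response of arrays labelled RARaKO. Quantile normalization left 0 called between genotypes in atRA (Lefty2, adjusted p = 0.0550). A level of at least 8 left 2 and 1 called in the averaged response and genotype difference, since Smad6, Lefty2 and 1 probe set each of Id4 and Id2 were then not tested. With 1 array or set left out the counts ranged from 0 to 3 (WT response), 0 to 2 (response of arrays labelled RARaKO), 0 to 1 and 0 to 2 (genotypes in EtOH and in atRA), and 1 to 4 and 0 to 4 (averaged response and genotype difference). Without a whole set, which leaves 2 arrays per group, Smad6 in WT cells had an adjusted p (limma) between 0.105 and 0.168. Its difference was between 0.52 and 0.58. For Id4 at 1423259_at the adjusted p was between 0.0392 and 0.19 in WT cells and between 0.167 and 0.639 in the arrays labelled RARaKO. At 1450928_at it was between 0.106 and 0.246 in WT cells and between 0.142 and 0.258 in the arrays labelled RARaKO. For Lefty2 in atRA it was between 0.0491 and 0.256. The averaged response of Id4 at 1450928_at kept its call without any set (adjusted p up to 0.026). Over all probe sets the WT response had 214 calls, 339 with the block and 382 with array weights, the response of arrays labelled RARaKO had 99, 167 with the block and 14 with its own arrays alone, and the genotypes in atRA had 1173, 2344 with the block and 592 with their own arrays alone. In EtOH they had 1131 calls, 1972 with the block and 2071 with array weights. The alternatives for pathway genes were chosen after seeing the data, and 16 of these 33 calls held without any 1 array. Signal over background is not in the deposited values, so which dim probe sets lie near background was not analysed here.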
